A study of Mus musculus with 8 samples.

Results

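RNA processing genes of cultured astrocytes were described in wild-type mice (WT) and in Cx43 null mice (Cx43 KO). Connexin43, the protein they lack, forms most gap junctions between astrocytes. The set comprised splicing factors, RNA helicases and RNA-binding proteins, chosen by gene symbol alone: SR proteins (Srsf), hnRNPs (Hnrnp), SF3 subunits (Sf3a, Sf3b), snRNP proteins (Snrp, Lsm, Prpf), DEAD-box and DEAH-box helicases (Ddx, Dhx), RNA binding motif proteins (Rbm) and polyadenylation factors (Cpsf, Cstf). Of 68 such symbols on the array, 44 had a ratio on at least 3 WT and 3 Cx43 KO arrays and are described here, out of 3505 genes and unnamed array features that met the same condition. A further search term, Pabp for poly(A)-binding proteins, matched 0 symbols.

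Each of 8 arrays, 4 per genotype, carried RNA of cortical astrocytes cultured from newborn mice beside a common pool of RNA from 10 tissues of adult mice of both sexes. The WT and Cx43 KO arrays are numbered 1 to 4 and share a lot batch where the number is the same. The strain C57BL/6j is legible for the astrocytes of WT 1 and for the pool on that array. For the other arrays the strain of the cells, and for all of them the age in days and whether a culture came from 1 animal or several, is not given in the sources used here, so the p-values reflect the spread of these 4 arrays per genotype, and that spread may be technical. The title of Cx43 KO 3 reads Cx43 without KO. Values are log2 ratios of astrocytes over pool, centred so that the median ratio of an array is 0. A value of 1 therefore means a ratio 2-fold above that median, and it is not an amount of transcript. Base 2 is assumed and the direction was read from the data: 6 of 6 genes of adult tissues lay below 0 in WT, with the lung surfactant gene Sftpc at -5.95 ± 0.46 (SD, n = 4), and 6 of 6 astrocyte genes lay above 0, with the radial glia and astrocyte gene Fabp7 at 4.45 ± 0.18 (SD, n = 4).

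The genotype could not be checked by its own transcript, because 0 features are named for Gja1, the gene of connexin43. Gfap, Aqp4, Slc1a3, Aldh1l1 and S100b also have 0 features, so the astrocyte label rests on markers such as Fabp7 and Sox9. Ratios above 0 were not particular to astrocyte markers. The median WT ratio was 1.22 for 6 astrocyte markers and 1.36 for 6 fibroblast, meningeal and mural markers. It was 0.80 for 7 microglia and macrophage markers, -0.71 for 2 neuron markers and -0.11 for 1 oligodendrocyte lineage marker. Between 3506 and 5514 of 9568 features had a ratio on an array. Across genes with a ratio on every array, any pair of arrays correlated at r = 0.67 to 0.92 over all genes, and at r = 0.64 to 0.92 over these RNA processing genes, which are not independent replicates. Cx43 KO 4 stood apart in markers of other cells: the mean of 6 microglia and macrophage markers was 2.10 there and 0.06 to 1.22 on the other arrays, and that of 4 astrocyte markers was 0.49 there and 1.62 to 1.93 elsewhere. The cell type mixture and the RNA content per cell cannot be told apart in such cultures.

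Before a transcript leaves the nucleus, introns are cut out by the spliceosome, a large assembly of small nuclear RNAs and their proteins (snRNPs). SR proteins bind exon sequences and help the spliceosome to recognise them, and hnRNPs coat the transcript and often act against that recognition. DEAD-box and DEAH-box helicases use ATP to remodel RNA and RNA-protein complexes, in splicing and in ribosome assembly alike. The cleavage factors then set the 3′ end of the messenger RNA, to which the poly(A) tail is added.

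Detection was uneven over the families. The kept genes were 3 of 3 SR proteins, 5 of 8 hnRNPs, 3 of 4 SF3 subunits, 11 of 19 snRNP proteins, 7 of 12 DEAD-box and 2 of 5 DEAH-box helicases, 9 of 12 RNA binding motif proteins and 4 of 5 cleavage factors. That is 64.7% of the symbols of the set, while 49.8% of all 5822 single symbols on the array were kept. Of the 24 that were not kept, 16 had a ratio on 0 arrays, among them the abundant helicases Ddx5 and Ddx17 and the splicing factor Prpf31. The other 8 had a ratio on some arrays. Just outside the limit were Ddx56, on 2 WT and 4 Cx43 KO arrays, Rbm41, on 3 WT and 2 Cx43 KO arrays, and Rbm14, on 2 WT and 3 Cx43 KO arrays. Just inside it was Sf3b3, on 3 arrays of each genotype. A further 7 genes lacked 1 array (Cpsf6, Ddx21, Hnrnpa2b1, Hnrnpl, Lsm14b, Rbm33 and Sf3a1), and 36 had a ratio on every array.

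Ratios of the set lay closer to the array median than those of all genes. The median WT ratio was 0.17 over the 44 genes and 0.0075 over all genes tested, and 28 of 44 (63.6%) lay above 0, against 50.5% of all genes. In WT 3 of 44 (6.82%) lay at least 2-fold from 0, all of them below it, namely Ddx20, Cstf1 and Rbm4b, while 19.4% of all genes tested lay that far away. The SD over genes of the WT ratio was 0.57 in the set and 0.91 over all genes. With limma and Benjamini-Hochberg adjustment over all genes, 12 of 44 were called above the array median in WT, where 26.1% of all genes were, and 7 were called below it, where 26.4% were. In Cx43 KO the counts were 14 above (all genes 30.9%) and 9 below (29.7%). In both genotypes, 10 were called above (23.4%) and 7 below (23.3%). The split of 12 to 7 depends on the centring. Without centring, which moved the median of all genes to 0.22, it was 23 to 5 (all genes 1287 to 613 of 3505). With exact 0 kept as a ratio it was 15 to 4 (all genes 756 to 379 of 8083). In that setting the array median is 0 and the arrays are thus uncentred as well. With exact 0 kept and the centring held as it was, the split was 12 to 8 (all genes 759 to 4474 of 8083). That alternative was chosen after seeing the data. The pool is a single RNA preparation and the dyes are not known to have been exchanged, so these tests leave out the spread of the pool and any dye effect of a gene.

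**Figure D1:**
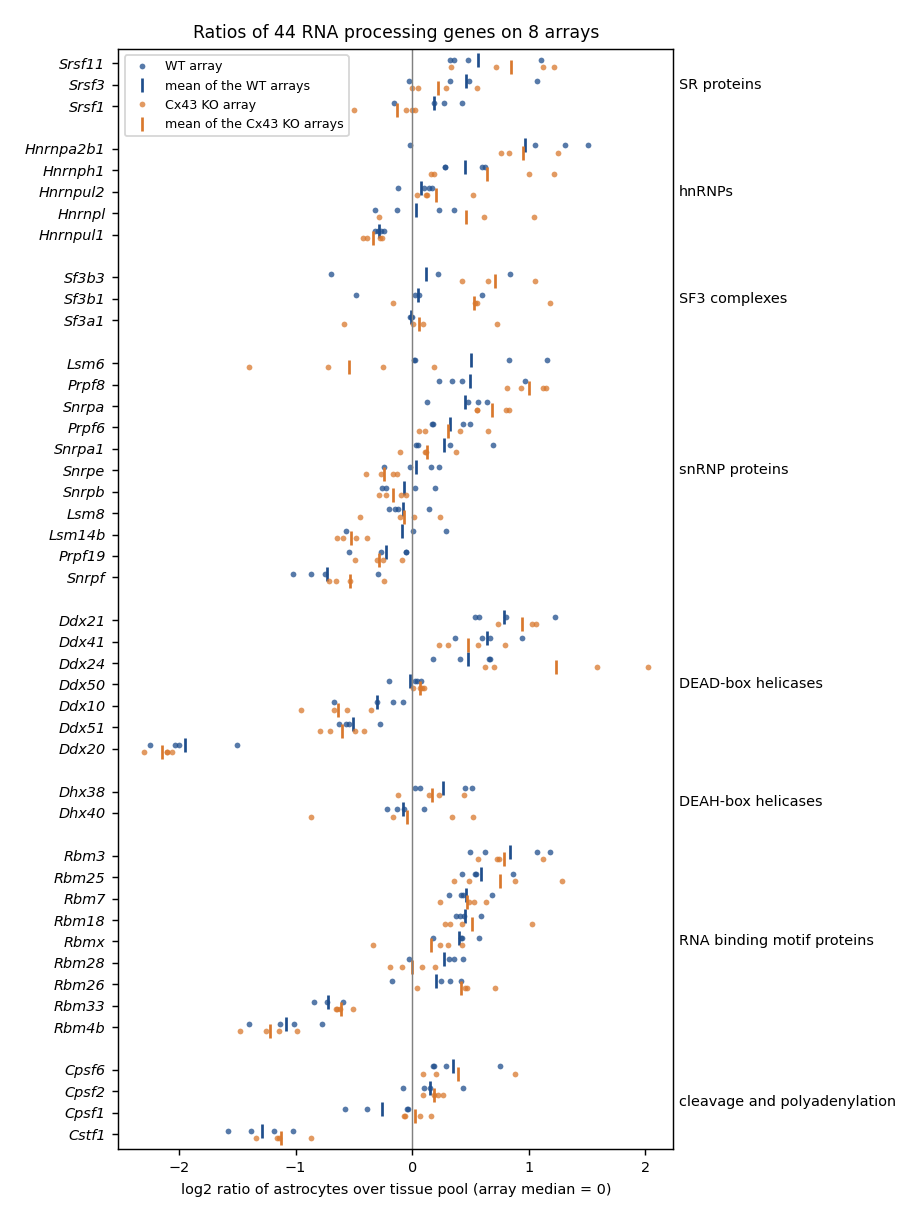
Log2 ratio of astrocytes over tissue pool for each of the 44 genes (rows, grouped by family), with 0 at the array median. Points are single arrays and upright bars the mean of up to 4 arrays of a genotype, blue for WT and orange for Cx43 KO. Most genes lie between -1 and 1, with Ddx20 lowest at -1.95 in WT and Hnrnpa2b1 highest at 0.96.

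Among SR proteins, Srsf11 and Srsf3 were called above the array median in WT. Srsf11, a splicing regulator with an arginine-serine rich domain, lay at 0.36, 0.32, 0.48 and 1.11 across WT 1 to 4. Across Cx43 KO 1 to 4 it lay at 1.22, 0.33, 1.12 and 0.72. The WT mean was 0.57 ± 0.37 (SD, n = 4), and the WT call (limma adjusted p = 0.0216) was lost without WT 4, where the mean was 0.39 (adjusted p = 0.106), and without WT 3 (adjusted p = 0.0518). Srsf3, the smallest SR protein and an export adaptor, lay at 1.07, 0.32, 0.49 and -0.03 on the WT arrays. Its WT call (limma adjusted p = 0.0445) did not hold with the lot batch as a block (adjusted p = 0.0553) or without WT 1, 2 or 3, and without WT 1 the mean was 0.26. Srsf1, which promotes exon inclusion and prevents mis-splicing at weak sites, lay close to 0, with a WT mean of 0.18 ± 0.25 (SD, n = 4) against -0.13 ± 0.25 (SD, n = 4) for Cx43 KO.

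Of the hnRNPs, Hnrnpa2b1 had the highest WT ratio of all 44 genes. This protein binds many nuclear transcripts and takes part in RNA transport in neural cells. It lay at 1.31, 1.06, 1.51 and -0.02 on WT 1 to 4, a mean of 0.96 ± 0.68 (SD, n = 4), or 1.95-fold, and at 0.83, 1.25 and 0.77 on Cx43 KO 2 to 4. WT 4 lay below the 6 other arrays with a ratio. Hnrnpul1, an hnRNP U-like protein with a role at DNA breaks, ranged from -0.32 to -0.25 on the WT arrays and from -0.42 to -0.26 on the Cx43 KO arrays. Its WT call below the median (limma adjusted p = 0.0403) was lost without centring (mean -0.07), with the lot batch as a block (adjusted p = 0.103), and in all but 1 of the 12 settings that leave out an array or a lot batch. Hnrnph1, which binds runs of G, and Hnrnpl, which binds CA-rich RNA, varied among the Cx43 KO arrays, Hnrnph1 from 0.16 to 1.22 and Hnrnpl from -0.28 to 1.05.

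The snRNP proteins, the largest family, lay near the array median, with a family median of 0.03 in WT. This family was grouped by symbol (Snrp, Lsm, Prpf), so it also takes in proteins such as Lsm14b, found in cytoplasmic RNA granules. Prpf8, the large protein at the catalytic centre of the spliceosome, and Snrpa, the A protein of the U1 particle, were called above the median in WT, at 0.49 ± 0.33 (SD, n = 4) and 0.45 ± 0.23 (SD, n = 4). The Prpf8 mean was not called without WT 4 (0.33, limma adjusted p = 0.0630), nor from the first of its features alone (0.08, adjusted p = 0.701). Snrpf, a subunit of the Sm ring that sits on most spliceosomal RNAs, was called below it in WT, at -0.73 ± 0.31 (SD, n = 4). The Sm subunits Snrpe and Snrpb lay at 0.03 ± 0.21 and -0.07 ± 0.21 (SD, n = 4 each) in WT, and neither passed. Among SF3 subunits, which hold the branch point of the intron, 0 of 3 passed in WT, with Sf3b1 at 0.05, Sf3b3 at 0.12 and Sf3a1 at -0.0096.

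Helicases spanned the widest range. Ddx20, a helicase of the SMN complex that assembles snRNPs, had the lowest WT ratio of the 44 genes, from -2.25 to -1.50 on the WT arrays and from -2.31 to -2.06 on the Cx43 KO arrays. Its mean lay 3.86-fold below the array median in WT, and the genotypes overlapped. At the other end, Ddx21, a nucleolar helicase of ribosome synthesis, lay at 0.79 ± 0.31 (SD, n = 4) in WT, and Ddx41, a helicase also known as a sensor of foreign DNA, at 0.65 ± 0.24 (SD, n = 4), both called above it. Ddx50, the close relative of Ddx21, lay at -0.02 ± 0.13 (SD, n = 4). The ribosome assembly helicase Ddx51 was called below the median in WT, at -0.50 ± 0.15 (SD, n = 4), a call that was lost without centring (mean -0.29, adjusted p = 0.0860). The DEAH-box helicases Dhx38, which acts between the splicing steps, and Dhx40 did not pass, at 0.26 ± 0.25 and -0.08 ± 0.13 (SD, n = 4 each).

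RNA binding motif proteins gave 5 calls above and 2 below the array median in WT among 9 genes, beside 26.1% and 26.4% of all genes tested. Rbm3, a cold-induced protein that aids translation in the brain, lay at 1.07, 0.63, 1.18 and 0.50 across WT 1 to 4. In Cx43 KO, in the same order, it lay at 0.75, 0.57, 0.73 and 1.12, so that every array was above 0. Rbm25, a splicing regulator, lay at 0.59 ± 0.19 (SD, n = 4), and Rbm7, which targets nuclear RNA to the exosome, at 0.46 ± 0.16 (SD, n = 4), each called above. Rbm18 and Rbmx, the latter an X-linked relative of the hnRNPs, completed the 5, at 0.45 and 0.40. Rbm4b, of a family that regulates alternative exons, lay at -1.08 ± 0.26 (SD, n = 4) and Rbm33 at -0.72 ± 0.12 (SD, n = 3). The Rbm4b mean joins features at -1.54 and -0.28 in WT and another, at -1.89, that had a ratio on some arrays only. Of the 3′ end factors, Cstf1, a subunit of the cleavage stimulation factor, was called below the median in WT, at -1.02, -1.19, -1.58 and -1.38 on WT 1 to 4. The cleavage and polyadenylation subunits Cpsf1, Cpsf2 and Cpsf6 did not pass, at -0.26, 0.15 and 0.35.

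Promoter sequences were available for 39 of the 44 genes, from RefSeq tables of build GRCm38.p6 that run from 250 bases before to 50 after a start site. Their 48 windows had a median GC content of 60.3% and a ratio of observed to expected CpG of 0.898, against 52.7% and 0.384 in all 32851 windows of the table. Both strands were searched for 8 short motifs. The GC box GGGCGG was found in 62.5% of the windows of the set and 35.7% of all windows, the ETS motif CCGGAAG in 18.8% and 8.86%, the NRF1 motif in 14.6% and 4.6%, the CCAAT box in 47.9% and 37.4% and the TATA box TATAAA in 12.5% and 13.6%. AAGATGGCG (YY1), TGACGTCA (CRE) and a palindromic motif known from housekeeping promoters were found in 6.25%, 4.17% and 2.08% of the windows of the set and in 1.40%, 1.79% and 0.466% of all. Any of these motifs can overlap another. These shares describe the letters only. Printed below are the 250 bases before the start, 5′ to 3′, of the genes with the highest and the lowest WT ratio and of the 3 genes with the smallest p between genotypes, with matches in capitals. They lie at chr6:51469895-51470144 (minus strand, Hnrnpa2b1, the start furthest upstream), chr3:105687572-105687821 (minus strand, Ddx20), chr11:75486527-75486776 (plus strand, Prpf8), chr8:78821153-78821402 (minus strand, Lsm6) and chr12:103425848-103426097 (minus strand, Ddx24).
Hnrnpa2b1: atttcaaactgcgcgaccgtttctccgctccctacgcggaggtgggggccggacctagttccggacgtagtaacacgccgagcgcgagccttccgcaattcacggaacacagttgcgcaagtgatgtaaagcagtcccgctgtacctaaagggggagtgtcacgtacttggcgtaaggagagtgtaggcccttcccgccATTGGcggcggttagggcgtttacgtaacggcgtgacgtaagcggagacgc
Ddx20: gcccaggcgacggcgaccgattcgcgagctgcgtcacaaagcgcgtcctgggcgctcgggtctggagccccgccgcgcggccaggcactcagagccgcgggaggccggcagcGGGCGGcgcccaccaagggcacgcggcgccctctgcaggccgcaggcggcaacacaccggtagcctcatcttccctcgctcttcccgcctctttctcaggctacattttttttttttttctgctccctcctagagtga
Prpf8: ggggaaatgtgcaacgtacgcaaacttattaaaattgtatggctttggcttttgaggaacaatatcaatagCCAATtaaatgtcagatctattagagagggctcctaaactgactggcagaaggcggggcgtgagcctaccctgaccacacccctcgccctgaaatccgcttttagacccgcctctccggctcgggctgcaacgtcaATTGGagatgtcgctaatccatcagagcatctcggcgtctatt
Lsm6: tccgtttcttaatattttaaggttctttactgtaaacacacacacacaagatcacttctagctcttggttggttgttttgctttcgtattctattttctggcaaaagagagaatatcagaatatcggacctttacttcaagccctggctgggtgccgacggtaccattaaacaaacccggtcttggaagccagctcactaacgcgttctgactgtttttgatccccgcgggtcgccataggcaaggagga
Ddx24: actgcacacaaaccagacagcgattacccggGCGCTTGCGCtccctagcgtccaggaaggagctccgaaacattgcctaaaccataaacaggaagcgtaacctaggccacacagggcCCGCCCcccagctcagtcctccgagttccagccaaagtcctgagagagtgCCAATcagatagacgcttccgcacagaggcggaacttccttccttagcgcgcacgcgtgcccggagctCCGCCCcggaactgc
The capitals mark a CCAAT box on the reverse strand in Hnrnpa2b1, a GC box in Ddx20, a CCAAT box on each strand in Prpf8, and an NRF1 motif, a CCAAT box and a pair of GC boxes in Ddx24. None of the searched motifs falls in the printed bases of Lsm6. Its full window, which includes the 50 bases after the start, was counted with a CCAAT box and a GC box.

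Between genotypes, none of the 44 genes passed. With limma, 0 of 44 had an adjusted p under 0.05, where 0 of 3505 genes and features did (0%). At an unadjusted p under 0.05 there were 3 of 44 (6.82%), Prpf8, Ddx24 and Lsm6, against a background of 7.50%. Prpf8 and Ddx24 were higher, where 3.85% of all were, and Lsm6 was lower, where 3.65% were. The count was 0 without WT 3 (all genes 140 of 3119). It was 1 (Lsm6) without WT 1 (all genes 169 of 2770). Lsm6 alone also remained with quantile normalization (all genes 215 of 3505) and with scaling of the arrays (all genes 239 of 3505). In the fit blocked by lot batch the count was 2, Ddx24 and Lsm6 (all genes 196 of 3505). It was 4 without WT 4, where Ddx10 was added (all genes 271 of 2768). With the feature with most values it was also 4, with Srsf1 added (all genes 271 of 3494). Only Ddx24 remained without lot batch 2 (all genes 161 of 3067). With exact 0 kept and so uncentred the genes were Prpf8 and Snrpe (all genes 277 of 8083). The adjusted p of the 44 genes ran from 0.655 to 0.995. Of the 44 differences (Cx43 KO minus WT), 24 were above 0 and 20 below, with a median of 0.02, and over all genes 52.6% were above 0, with a median of 0.02. The median size of a difference, whatever its sign, was 0.16 in the set and 0.19 over all genes. In 0 of the 36 genes with a ratio on every array did the genotypes not overlap, where 1.73% of such genes lay wholly higher and 2.47% wholly lower in Cx43 KO over the array. For 39 of 44 genes the 95% interval of the difference lay within -1 and 1, that is within a 2-fold change in either direction. That is 88.6%, beside 79.8% of all genes tested. The exceptions were Ddx24, Hnrnpl, Lsm6, Sf3b1 and Sf3b3.

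**Figure D2:**
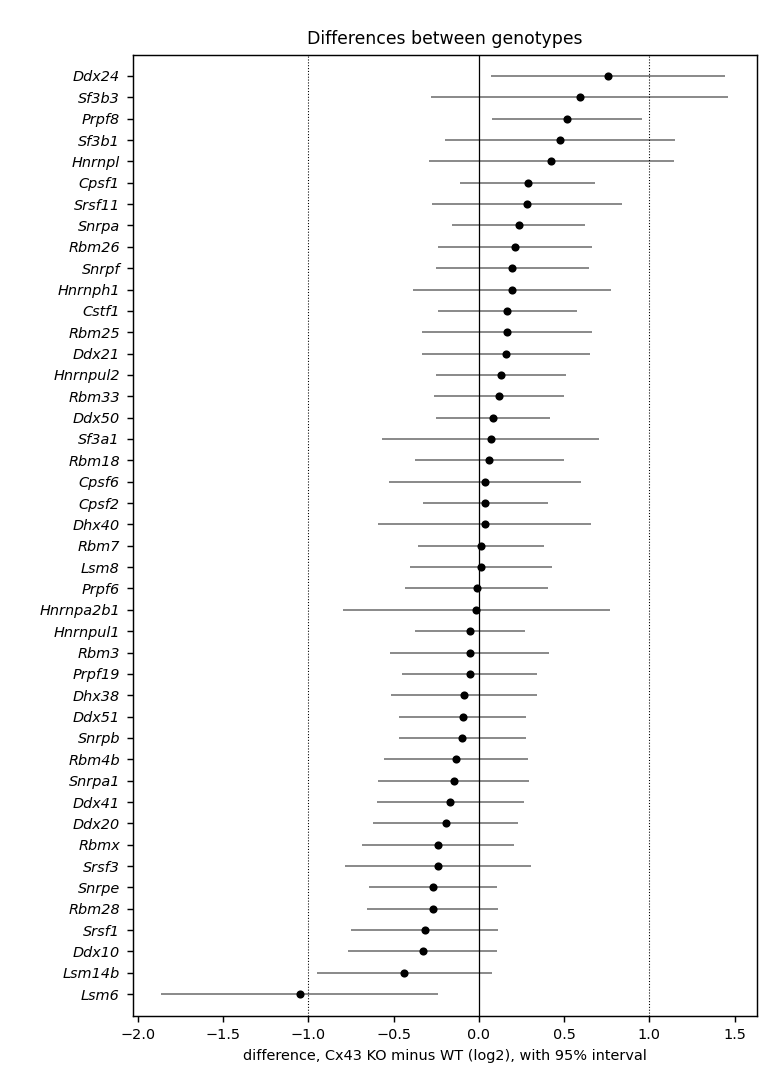
Difference between genotypes (Cx43 KO minus WT, log2) for the 44 genes in order of size, with points for the estimate and lines for the 95% interval of the limma fit. Dotted lines mark a 2-fold change. The intervals of Lsm6, Prpf8 and Ddx24 leave out 0 before adjustment, and none of the 44 genes passed after it.

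Prpf8 was higher on average in Cx43 KO without passing the test. Across WT 1 to 4 its ratio was 0.43, 0.34, 0.23 and 0.97. Across Cx43 KO 1 to 4 it was 1.15, 1.12, 0.94 and 0.82. Each Cx43 KO array lay above WT 1, WT 2 and WT 3, and WT 4 lay among the Cx43 KO arrays. The difference was 0.51 (SE 0.20, limma adjusted p = 0.655), or 1.43-fold, and within lot batches 1 to 4 it was 0.72, 0.79, 0.70 and -0.15. Prpf8 has a pair of features with a ratio on every array. The first lay at -0.31 to 0.51 in WT and 0.57 to 1.07 in Cx43 KO, with no overlap, and the second at 0.56 to 1.43 and 0.94 to 1.49, with overlap, for differences of 0.69 and 0.33.

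Lsm6 had the largest difference of the 44 genes. The protein is part of the Lsm rings, one of which binds the end of U6 RNA in the nucleus while another takes part in messenger RNA decay in the cytoplasm. Across WT 1 to 4 its ratio was 0.02, 0.83, 1.15 and 0.02. Across Cx43 KO 1 to 4 it was -1.40, -0.72, 0.18 and -0.25. Every WT array lay above Cx43 KO 1, 2 and 4, and Cx43 KO 3 lay above WT 1 and WT 4. The difference was -1.05 (SE 0.37, limma adjusted p = 0.655), and within lot batches 1 to 4 it was -1.42, -1.55, -0.97 and -0.27. Lsm8, which stands in place of Lsm1 in the nuclear ring, differed by 0.01 (95% interval -0.41 to 0.43). Lsm14b, a protein of cytoplasmic RNA granules measured on 3 WT arrays, differed by -0.44 (SE 0.23), with WT at 0.0082, -0.57 and 0.29 on WT 1, 2 and 4 and Cx43 KO from -0.64 to -0.38.

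Ddx24 was high on 2 of the Cx43 KO arrays. This helicase, known as a partner in ribosome assembly and a modulator of innate immune signalling, lay at 0.41, 0.67, 0.18 and 0.66 across WT 1 to 4. Across Cx43 KO 1 to 4 it lay at 0.71, 0.63, 2.03 and 1.59. Cx43 KO 3 and 4 lay above all others, and Cx43 KO 1 and 2 close to WT 2 and WT 4. The difference was 0.76 (SE 0.31, limma adjusted p = 0.655). It was 0.30, -0.04, 1.84 and 0.93 within lot batches 1 to 4, and it was 0.50 without Cx43 KO 3 and 0.40 without lot batch 3. These values come from 1 of the 2 features of Ddx24, since the other had a ratio on 0 arrays. With exact 0 kept as a ratio, and so uncentred, the Ddx24 difference was 0.38. The remaining DEAD-box helicases differed by -0.33 (Ddx10) to 0.16 (Ddx21), and Ddx20 by -0.20 (SE 0.19). The Ddx20 difference was -0.05 without WT 2, -0.0040 with quantile normalization and 0.13 with scaling of the arrays.

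The 3 SF3 subunits all had estimates above 0, and none passed. Sf3b1, the subunit that contacts the branch point and a frequent site of mutation in blood cancers, lay at -0.48, 0.06, 0.03 and 0.60 across WT 1 to 4. In Cx43 KO, in the same order, it lay at 0.56, -0.16, 1.19 and 0.54, a difference of 0.48 (SE 0.30) that was 0.30 without WT 1 and 0.26 without Cx43 KO 3. The genotypes overlapped widely. Sf3b3 differed by 0.59 (SE 0.38) on 3 arrays per genotype and by 0.21 with the lot batch as a block, and WT 2, its lowest array at -0.70, had a ratio from only 1 of the 2 features of the gene. Sf3a1 differed by 0.07 (SE 0.28). The 4 cleavage factors likewise had estimates above 0, from 0.04 (Cpsf2) to 0.29 (Cpsf1, SE 0.18, or 0.18 without WT 3). WT 3 and 4 of Cpsf1, at -0.57 and -0.39, lay below every other array, which ran from -0.07 to 0.16.

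Estimates below 0 were found for Srsf1 (-0.32, SE 0.19), Snrpe (-0.27, SE 0.17), Rbm28, a nucleolar protein (-0.27, SE 0.17), and Rbmx (-0.24, SE 0.20), and none passed. Without Cx43 KO 4, the array that stood apart in markers, the difference was -0.07 for Rbmx and -0.20 for Srsf1. Srsf1 lay at 0.43, 0.27, 0.19 and -0.15 across WT 1 to 4. Across Cx43 KO 1 to 4 it lay at 0.03, 0.0013, -0.06 and -0.50. It was lower in Cx43 KO in each of the 4 lot batches, as were Lsm6, Rbm28 and Rbmx, and Ddx50 and Rbm26 were higher in each. Those 6 of 36 genes (16.7%) stand beside 16.0% of all genes with a ratio on every array. For Ddx50 the signs are those of the mean over its features. On Cx43 KO 3 that mean took in a feature, at 0.48, that had no ratio on WT 3. The Ddx50 features with a ratio on every array differed by 0.04 and -0.04 between genotypes. The hnRNPs differed by -0.05 (Hnrnpul1) to 0.42 (Hnrnpl, SE 0.32), and Hnrnpl by 0.14 with array weights. Snrpa differed by 0.23 (SE 0.18), or 0.13 without WT 3, and Srsf11 by 0.28 (SE 0.25), or 0.16 without Cx43 KO 1.

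A few genes shared their highest arrays, a description made after the values were seen. Srsf11 was highest on WT 4 and Cx43 KO 1 and 3, at 1.11, 1.22 and 1.12, with 0.32 to 0.72 on the other 5. Sf3b1 was also highest there, at 0.60, 0.56 and 1.19, though Cx43 KO 4 at 0.54 lay close. Hnrnph1 was highest on Cx43 KO 1 and 3, at 1.00 and 1.22. All arrays share 1 pool.

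**Figure D3:**
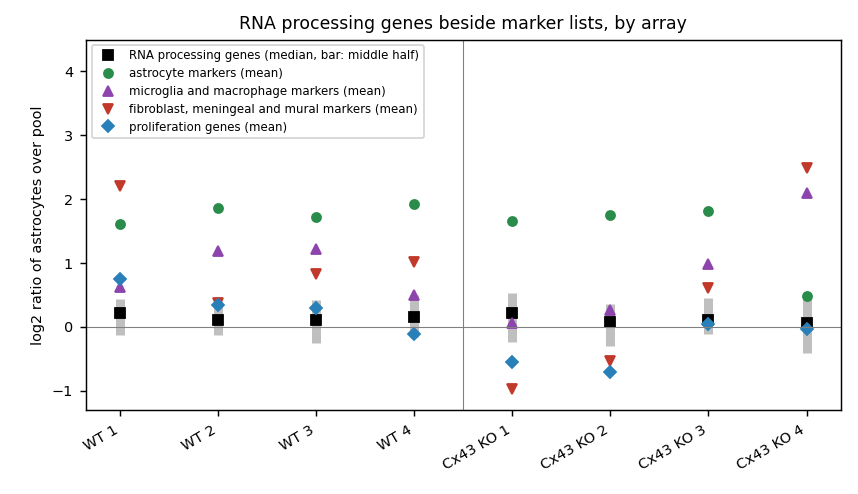
Median of the 36 RNA processing genes with a ratio on every array (squares, with a bar from the lower to the upper quartile) beside the mean of 4 marker lists on each of the 8 arrays, in log2 ratio of astrocytes over pool. The squares lie between 0.07 and 0.22 on arrays whose median was set to 0, and the means of 4 to 8 marker genes run from -0.96 to 2.49, so their spreads cannot be compared.

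The median of the 36 genes with a ratio on every array, on arrays centred to a median of 0, ran from 0.10 to 0.22 over the WT arrays and from 0.07 to 0.22 over the Cx43 KO arrays. The median SD of a gene over the 4 WT arrays was 0.24 in the set and 0.26 over all genes, and 0.22 and 0.30 over the 4 Cx43 KO arrays. Cx43 KO 4, the array that stood apart in glial and microglial markers, had the largest mean distance of the 36 genes from their own means, 0.26 against 0.18 to 0.23 on the others, and the same held over all genes, 0.41 against 0.22 to 0.29. Proliferation genes had differences below 0 (Cx43 KO minus WT) for 9 of 9 tested, with a median of -0.44. The median difference was -0.67 for 6 fibroblast, meningeal and mural markers, -0.40 for 7 microglia and macrophage markers and -0.38 for 6 astrocyte markers. The mean of 8 of the proliferation genes was -0.54 and -0.71 on Cx43 KO 1 and 2 and -0.11 to 0.75 on the other arrays. Fibroblast, meningeal and mural markers ran from -0.96 on Cx43 KO 1 to 2.49 on Cx43 KO 4. The part of these lists in the values of single RNA processing genes was not tested.

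Features of the same gene did not always give the same ratio. The 44 genes have 69 features, of which 10 had a ratio on 0 arrays. Among the 10 was 1 each of Ddx24, Hnrnpa2b1, Hnrnph1, Hnrnpl and Sf3b1. Of the 44 genes 19 have more than 1 feature on the array and 8 have several with a ratio on every array. The pair of Rbm4b features lay at -1.54 and -0.28 in WT, a gap of 1.27, and another feature of the gene, at -1.89, had no ratio on 3 arrays. The gap in WT was 0.83 for Prpf8, 0.60 for Srsf1 and 0.57 for Cpsf2. The difference between genotypes had the same sign in all such features for 2 of the 8 genes, Prpf8 and Srsf1. For Hnrnpul1 it was -0.37, -0.04 and 0.26 in its 3 features, and the mean over features gave -0.05. Its last feature did not overlap between genotypes, at -0.51 to -0.41 in WT and -0.38 to -0.04 in Cx43 KO. This feature and the first of Prpf8 were the 2 of 17 such features that lay wholly higher in Cx43 KO, where 2.24% of all features with a ratio on every array did. Of the 17, 0 lay wholly lower, where 2.56% of all features with a ratio on every array did.

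**Figure D4:**
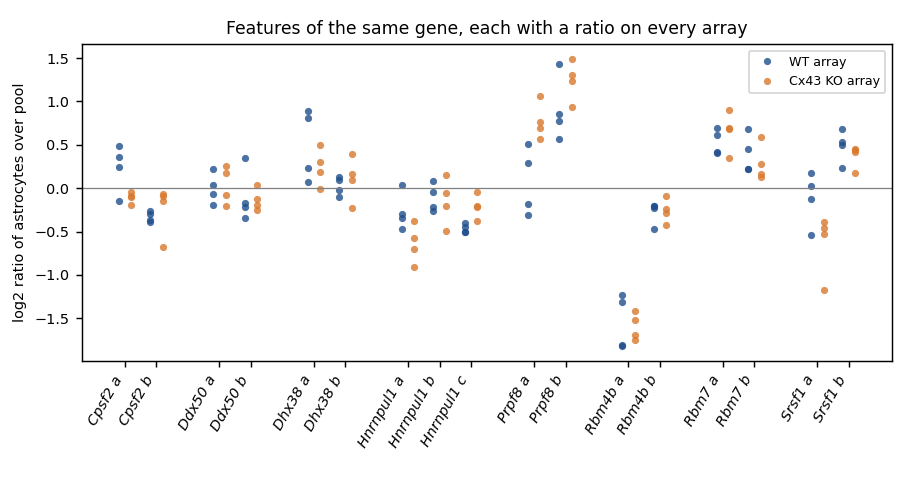
Log2 ratio of astrocytes over pool on each array for the 8 genes with several features on every array, with letters for the features of a gene, blue points for WT and orange for Cx43 KO. The features of Rbm4b, Prpf8 and Srsf1 lie at different heights, and the genotypes do not overlap in feature a of Prpf8 and feature c of Hnrnpul1.

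Other genes of RNA processing, from a list of 182 symbols outside the set, were also compared. The array held 82 of them and 50 could be tested. Their differences (Cx43 KO minus WT) were above 0 in 29 and below 0 in 21, with a median of 0.04. With limma 0 of 50 passed and 4 (8%) had an unadjusted p under 0.05, where 7.50% of all genes did. The smallest p belonged to Ybx3, a cold shock domain protein that binds messenger RNA, at -1.91, -1.46, -2.03 and -1.69 across WT 1 to 4 and at -2.38, -2.19, -2.44 and -2.75 across Cx43 KO 1 to 4. The genotypes did not overlap (2.47% of all genes with a ratio on every array lay wholly lower), and the difference was -0.67 (SE 0.19, limma adjusted p = 0.572), or -0.32 with scaling of the arrays. The exosome nuclease Dis3 differed by -0.46 (SE 0.18) and the deadenylase Cnot6 by -0.58 (SE 0.25). In the other direction, the spliceosome protein Snw1 differed by 0.40 (SE 0.18), the export factor Nxt1 by 0.37 (SE 0.19) and the editing enzyme Adar by 0.59 (SE 0.33), with Adar from -0.50 to 0.66 on the WT arrays and 0.35 to 1.60 on the Cx43 KO arrays. The Adar difference was 0.32 without Cx43 KO 4 and 0.35 without WT 1. In WT, 8 of the 50 were called above the array median (all genes 26.1%) and 17 below it (26.4%), with a median ratio of 0.0095. Without centring these counts were 14 and 9 (all genes 1287 and 613 of 3505).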

How the data were processed

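The authors deposited 1 table of signed log ratios for 8 2-colour arrays and 9568 features, read here as log2 ratios. Log base, dyes, scanner, background correction and normalization: not given in the sources used here. Exact 0, 42.4% to 63.4% of an array, was read as no ratio. The arrays carry no counts, and their number limits the precision. Features were named by the platform annotation, 7307 of them with 1 symbol, 318 with several (left unnamed) and 1943 unnamed. The median ratio was subtracted from each array, then features of a gene were averaged. Genes with at least 3 values per genotype were fitted with limma 3.58.1 (R 4.3.3, lmFit and eBayes, genotype only, all 8 arrays), two-sided, with Benjamini-Hochberg adjustment over all 3505 and a threshold of 0.05. The same fit gave each genotype's mean against 0. The fit was tested on simulated data whose planted differences were larger than any found in the set. That test cannot show whether differences of the size seen here would be found.

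Groups came from the titles. Equal numbers mark a lot batch in the labels and so pair the arrays. Their deviations correlated at r = -0.18, 0.19, -0.13 and -0.19 over genes. Members, lists and tests were chosen with earlier results of these data known. Named genes were the 8 in each direction with the smallest p (since fewer passed), the 8 highest and 8 lowest in WT with a ratio on every array, in each family the highest, the lowest and the one with the smallest p, those whose genotypes did not overlap, the 3 with the largest SD, those with several features on every array, and 6 of the other RNA processing genes. Hnrnph1, Lsm8, Rbm18, Rbm26, Rbm33, Snrpb and the genes not kept fall outside that rule and were named after their values were seen. Alternatives covered centring, exact 0, the value filter, the features, the lot batch, array weights and leaving out arrays or lot batches.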

Additional observations from a re-analysis of the deposited data

Results flagged for a closer look

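Of 74 groups of 4 arrays examined for 1 array far from the other 3, 3 were found, and chance gives about 1 in 20. Srsf1 lay at -0.50 on Cx43 KO 4, with the other Cx43 KO arrays between -0.06 and 0.03. Ddx20 lay at -2.31 on Cx43 KO 3, with the others between -2.10 and -2.06. Snw1 lay at 0.37 on WT 1, with the other WT arrays between 0.65 and 0.68.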

How the results depend on the processing

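With limma, 0 of the RNA processing genes were called between genotypes under any alternative run. Over all genes the count was 0 to 4 when leaving out an array or lot batch (4 without Cx43 KO 4, 1 without WT 2), 2 with array weights and 0 otherwise. The median difference of the set was 0.0900 with array weights and -0.0659 to 0.0414 when leaving out an array or lot batch. The count called above the array median in WT was 23 of 44 without centring (all genes 1287 of 3505). It was 6 to 11 when leaving out an array or lot batch. Without lot batch 1 it was 6 of 37 (all genes 623 of 2655). Without lot batch 2 it was 7 of 40 (all genes 692 of 3067), and without lot batch 3 it was 6 of 38 (all genes 560 of 2815). The count below was 4 with exact 0 kept as a ratio (all genes 379 of 8083), which also leaves the arrays uncentred. The median WT ratio was 0.39 without centring, 0.32 with exact 0 kept and so uncentred, and 0.0750 with the feature with most values for each gene. With exact 0 kept and the centring held, chosen after seeing the data, these were 12 above, 8 below and a median of 0.11. Over all genes 759 were called above and 4474 below in that setting, of 8083. The difference of Ddx20 turned to 0.13 with scaling of the arrays. The lot batch as a replicate block left the count between genotypes at 0. In WT it gave 11 above and 6 below (all genes 801 and 790 of 3505). The block changed no call of a named gene beyond the WT calls of Srsf3 and Hnrnpul1 (limma adjusted p = 0.103). The cause of these changes was not tested. Of 459 values of named differences under the alternatives, 458 kept their sign and their side of the threshold, and the exception is Ddx20 above. Of 352 values of WT ratios 310 did, and 0 turned sign. These counts do not measure robustness. No named difference passed in the main fit, and several alternatives leave the values of a gene unchanged. Leaving out a Cx43 KO array cannot move a WT mean.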
